A study of Mus musculus with 6 samples.

Results

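The genes described here are 39 mouse DNA repair genes, chosen by name from the pathways of homologous recombination, Fanconi anaemia and mismatch repair, with PARP, Ku and DNA polymerase theta genes beside them. They are 39 of the 22477 genes in the deposited count table, and all 39 passed the filter on low counts. RNA was measured by poly(A) RNA sequencing in 6 lung samples of the RPM mouse, a genetically engineered model of small cell lung cancer: 2 samples of normal lung tissue and 4 lung tumors. All mice carried floxed Rb1 and p53 (Trp53) alleles and a lox-stop-lox Myc allele with the T58A change, and Ad5CGRP-Cre is listed as the treatment of all 6, the normal samples included. This adenovirus expresses Cre recombinase from the promoter of the CGRP gene, which is active in pulmonary neuroendocrine cells, and tumors were induced by instillation into the airway at 8 weeks of age. The labels used here state neither the age at sampling nor any drug or vehicle given to the mice sampled. The libraries carry different mouse numbers and 1 batch number, and they are called normal 1, normal 2 and tumors 3 to 6 after the labels.

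Homologous recombination repairs a broken chromosome by copying the sister: the MRE11-RAD50-NBN complex binds the ends, nucleases trim them, and the BRCA1 and BRCA2 complexes prepare them to invade the sister. The Fanconi anaemia pathway removes crosslinks between DNA strands through a core complex that attaches ubiquitin to the FANCD2-FANCI clamp, while mismatch repair corrects copying errors behind the replication fork. Non-homologous end joining seals ends directly and can act throughout the cell cycle, whereas recombination works mainly in S and G2 phase, when a sister copy exists and many of its genes are expressed.

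Levels are given in CPM, counts scaled to a common library size, and p-values were adjusted over all genes tested. Of the 39 genes, 31 were higher in tumors (79.5%) and 1, Rad50, was lower (2.56%) at an adjusted p under 0.05 in edgeR's quasi-likelihood test. Over all 18027 genes tested, 31.3% were higher and 32.6% were lower. The counts by pathway and by list below are to be read beside these shares. The 39 genes were chosen with earlier results of these data known, so their shares beside those of all genes are a description. The median log2 fold change of the 39 genes was 1.54, against 0.02 over all genes tested. Of the 39, 11 (28.2%) were at least 8-fold higher, a size chosen after the values were seen, against 9.91% of all genes: Ube2t, Rad51ap1, Exo1, Rad54b, Bard1, Polq, Brca1, Fancd2, Blm, Rad54l and Brca2. All 4 tumors lay above both normal lungs for 31 genes (79.5%), against 37.4% of all genes. For 2 of the 39, Rad50 and Nbn, all 4 lay below, against 7183 of the 18027 genes tested. The 7 genes without a call were Nbn, Rad52, Fancc, Fance, Fancg, Prkdc and Lig4. With 1138 rows of small non-coding RNA and histone genes taken out before scaling, the counts were again 31 higher and 1 lower.

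**Figure D1:**
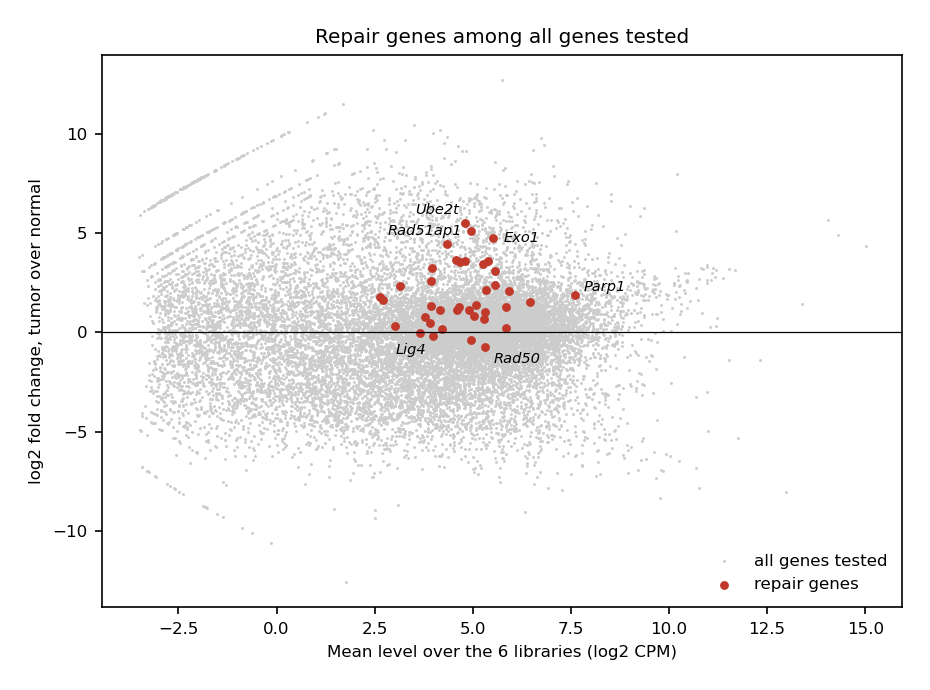
Each point is 1 gene: the horizontal axis is its mean level over the 6 libraries (log2 CPM) and the vertical axis its log2 fold change, tumor over normal. Grey points are the 18027 genes tested and red points the 39 repair genes, of which 31 were higher and 1 was lower in tumors.

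Promoter sequence was examined as a description, and regulation of these genes was not tested. RefSeq promoter windows, from 250 bases before to 50 bases after the start on GRCm38.p6, matched 31 of the 39 genes by symbol. The 8 genes without a window were Rad50, Nbn, Rbbp8, Exo1, Xrcc2, Rad54b, Fancd2 and Prkdc, and the shares below leave them out. Letters known from E2F sites (TTTCCCGC, TTTGGCGC, TTTCGCGC or TTTGCCGC, on either strand) stood in 7 of the 31 windows (22.6%, exact 95% interval 9.59 to 41.1), those of Bard1, Brca2, Rad51c, Fancg, Msh3, Msh6 and Xrcc6. They stood in 2.6% of the windows of all 27025 genes, in 4.02% of 13120 tested genes and in 6.18% of 4064 genes called higher. The same letters without the first T, a form chosen after the windows were read and of which every 8-letter match is also a match, stood in 19 windows (61.3%), against 10.9% of all genes, 17.1% of tested genes and 22.2% of genes called higher. In the shorter window from 150 bases before the start, the 8-letter forms stood in 4 of 31 (12.9%, against 1.91% of all genes), without Bard1, Brca2 and Msh3, and the 7-letter form in 15 (48.4%, against 8.35%). The median GC content of the windows was 60.0% for the 31 genes and 59.7% for tested genes. The window of 6 genes is shown 5′ to 3′ on the gene's strand, with the 7-letter matches in capitals. Of these, 4 rose at least 8-fold and hold the 7-letter form: Ube2t, Rad51ap1, Brca2 and Bard1. Among those 4, only Brca2 and Bard1 hold an 8-letter form, and neither does in the shorter window. Rad54l rose 9.49-fold and holds neither form in either of its listed windows. Fancg holds both forms and passed no threshold.
Ube2t (chr1:134962315-134962614, plus strand): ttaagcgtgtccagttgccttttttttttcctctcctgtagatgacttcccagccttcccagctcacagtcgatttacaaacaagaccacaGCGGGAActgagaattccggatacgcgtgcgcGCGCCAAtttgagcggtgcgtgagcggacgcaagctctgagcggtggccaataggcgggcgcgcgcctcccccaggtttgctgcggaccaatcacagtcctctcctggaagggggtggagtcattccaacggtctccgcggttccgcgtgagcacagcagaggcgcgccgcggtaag
Rad51ap1 (chr6:126939538-126939837, minus strand): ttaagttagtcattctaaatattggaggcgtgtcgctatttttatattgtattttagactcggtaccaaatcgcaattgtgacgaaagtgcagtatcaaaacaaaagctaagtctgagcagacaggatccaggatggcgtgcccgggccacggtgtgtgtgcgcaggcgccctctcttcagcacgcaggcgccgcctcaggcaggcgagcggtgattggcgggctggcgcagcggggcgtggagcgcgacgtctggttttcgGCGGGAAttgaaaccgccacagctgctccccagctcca
Brca2 (chr5:150522371-150522670, plus strand): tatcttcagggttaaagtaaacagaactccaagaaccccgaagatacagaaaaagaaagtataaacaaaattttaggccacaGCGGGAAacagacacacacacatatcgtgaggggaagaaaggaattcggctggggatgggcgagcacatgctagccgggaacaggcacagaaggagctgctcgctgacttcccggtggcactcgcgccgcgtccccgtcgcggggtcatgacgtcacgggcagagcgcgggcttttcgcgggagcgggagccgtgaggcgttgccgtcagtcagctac
Bard1 (chr1:71102923-71103222, minus strand): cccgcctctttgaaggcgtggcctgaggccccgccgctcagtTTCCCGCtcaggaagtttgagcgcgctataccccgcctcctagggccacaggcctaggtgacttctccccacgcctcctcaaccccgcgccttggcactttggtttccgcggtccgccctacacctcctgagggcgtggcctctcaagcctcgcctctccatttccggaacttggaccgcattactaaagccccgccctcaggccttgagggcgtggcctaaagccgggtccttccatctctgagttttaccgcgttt
Rad54l (chr4:116123640-116123939, minus strand): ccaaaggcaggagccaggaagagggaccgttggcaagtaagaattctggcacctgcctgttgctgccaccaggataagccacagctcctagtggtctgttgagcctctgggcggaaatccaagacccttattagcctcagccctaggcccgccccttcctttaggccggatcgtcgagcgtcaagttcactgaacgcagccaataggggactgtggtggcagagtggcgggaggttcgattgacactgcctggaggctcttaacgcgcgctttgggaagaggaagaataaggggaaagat
Fancg (chr4:43010252-43010551, minus strand): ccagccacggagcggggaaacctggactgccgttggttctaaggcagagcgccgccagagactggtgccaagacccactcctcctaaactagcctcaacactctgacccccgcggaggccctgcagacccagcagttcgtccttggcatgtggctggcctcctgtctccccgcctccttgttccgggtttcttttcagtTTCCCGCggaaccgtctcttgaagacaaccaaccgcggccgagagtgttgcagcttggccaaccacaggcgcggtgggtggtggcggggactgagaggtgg

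In these windows the match of Bard1 began 208 bases and that of Brca2 168 bases before the start, the matches of Ube2t 159 and 127 bases before it, and that of Rad51ap1 12 bases after it. The match of Fancg began 51 bases before the start. Of the uncalled genes with a window, Fancg, Rad52 and Lig4 held the 7-letter form, and Fancc and Fance did not. The genes called higher whose windows lacked it were Rad54l, Fanca, Fancl, Mre11a, Palb2, Parp1, Parp2, Xrcc1, Xrcc3 and Xrcc5. Whether either form goes with a call or with the size of a rise was not tested. The E-box CACGTG, the letters bound by MYC and its partner MAX, stood in 3 of the 31 windows (9.68%), those of Parp1, Parp2 and Xrcc5, against 8.09% of all genes, 10.6% of tested genes and 11.9% of genes called higher. The cell cycle homology region TTTGAA, searched on both strands, stood in 2 (6.45%), those of Bard1 and Polq, against 20.2% of all genes, 14.8% of tested genes and 15.9% of genes called higher. A match is a run of letters and was not tested for binding.

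The genes of break sensing and resection did not move together: 4 of 6 rose and 1 fell. Of the 3 subunits of the end-binding complex, Rad50 and Nbn were lower in all 4 tumors than in both normal lungs, and Mre11a was higher. Mre11a, the nuclease subunit, stood at 15.9 and 17.3 CPM in normal 1 and 2, and at 32.2, 40.7, 34.1 and 40.9 in tumors 3 to 6. Rad50, the ATPase that tethers the ends, stood at 53.6 and 54.1 CPM in the normal lungs and at 24.1, 38.8, 34.4 and 34.3 in the tumors. Mre11a rose 2.23-fold (log2 fold change 1.15 ± 0.19 SE, adjusted p = 0.00199) and Rad50 fell 1.64-fold (−0.71 ± 0.21, adjusted p = 0.0218). Nbn, which recruits the ATM kinase to breaks, stood at 35.9 and 36.7 CPM against 27.3, 31.1, 28.8 and 25.3, a log2 fold change of −0.37 ± 0.16 that missed the threshold (adjusted p = 0.0778). The Rad50 call was lost without normal 1 (adjusted p = 0.104) or without normal 2 (0.103), and Nbn passed the threshold without tumor 4 (0.0461).

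The genes of the next steps were all higher. Rbbp8 encodes CtIP, the cofactor that starts resection, and went from 29.1 and 30.4 CPM to 72.0, 75.8, 74.8 and 64.2, a 2.41-fold rise (adjusted p = 0.000491). Exo1, the exonuclease of long-range resection that also serves mismatch repair, stood at 2.001 and 2.902 CPM in the normal lungs. In the tumors it stood at 61.7, 69.7, 62.7 and 75.5 CPM, a 27.5-fold rise (log2 4.78 ± 0.25, adjusted p = 3.85e-05) with little spread among tumors. Blm, the helicase lost in Bloom syndrome, rose 10.9-fold from 4.88 and 5.25 CPM to between 45.9 and 63.9 (adjusted p = 5.59e-05).

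**Figure D2:**
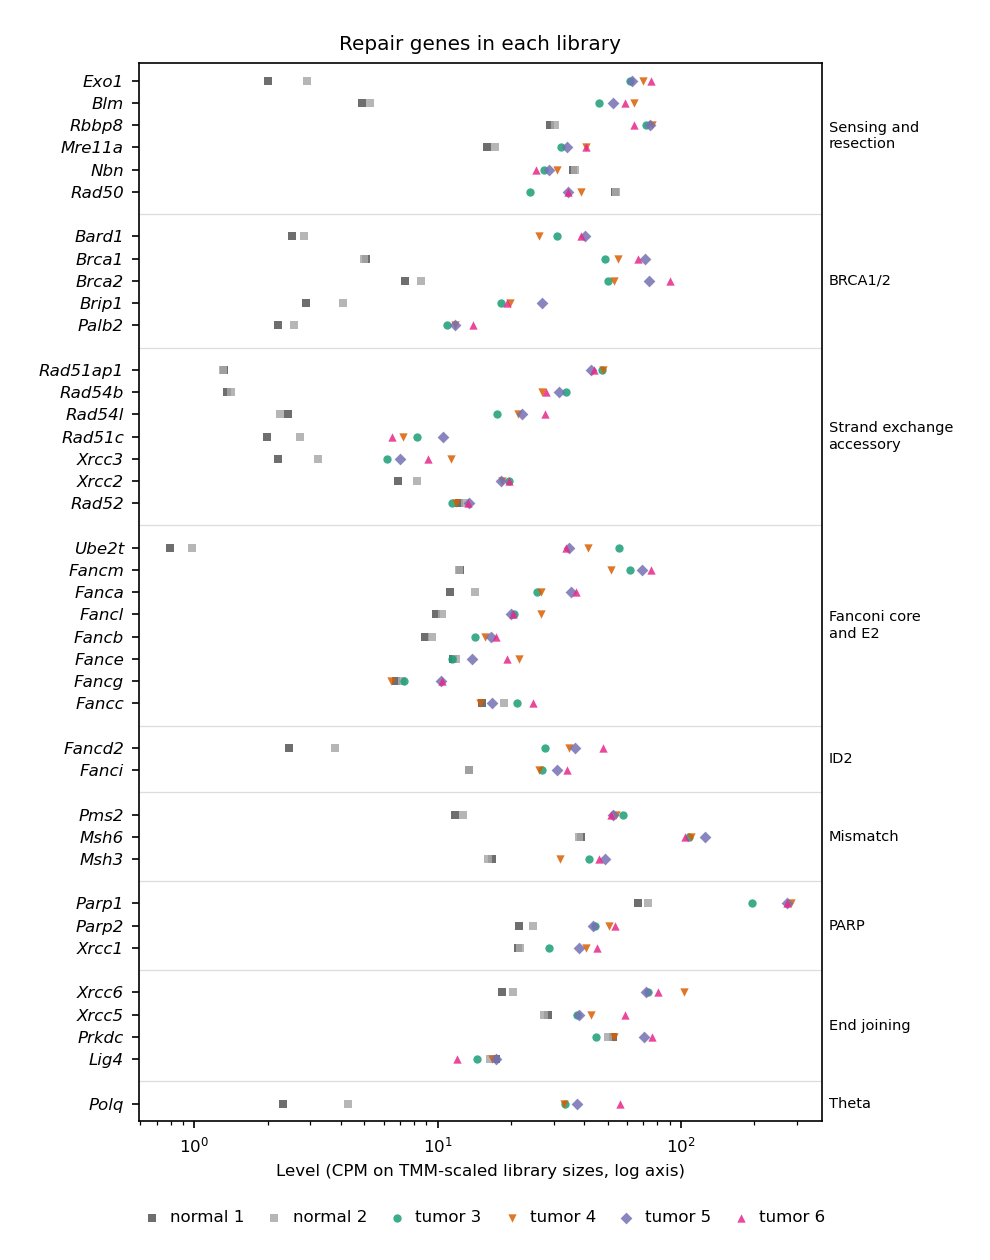
Level of each of the 39 genes in each library, in CPM on a log axis, with grey squares for the 2 normal lungs and coloured symbols for the 4 tumors, in order of pathway. Ube2t, Rad51ap1 and Exo1 lie farthest apart between the groups, while Rad52, Fancc, Fance, Fancg, Prkdc and Lig4 overlap.

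All 5 genes of the BRCA1 and BRCA2 complexes rose, with a median log2 fold change of 3.07. Brca1, the ubiquitin ligase that favours resection and recruits PALB2, stood at 5.06 and 5.01 CPM in the normal lungs and at 48.6, 55.1, 70.9 and 66.3 in the tumors. Bard1, its obligate partner, stood at 2.53 and 2.84 CPM against 30.9, 26.03, 40.4 and 38.9. Brca1 rose 11.97-fold (log2 3.58 ± 0.24, adjusted p = 6.61e-05) and Bard1 rose 12.7-fold (SE 0.29, adjusted p = 0.000118). Brca2, which readies resected DNA for strand exchange, stood at 7.34 and 8.53 CPM against 50.1, 53.2, 73.6 and 90.3, an 8.41-fold rise (log2 3.07 ± 0.32, adjusted p = 0.000334). Tumors 5 and 6 were higher than tumors 3 and 4 for Brca1, Bard1 and Brca2. Palb2, which bridges BRCA1 to BRCA2, rose 5.05-fold from 2.21 and 2.57 CPM to between 10.9 and 13.99 (adjusted p = 0.000481). Brip1, a helicase bound to BRCA1, rose 6.06-fold from 2.89 and 4.07 CPM to between 18.2 and 26.97 (adjusted p = 0.000499).

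Of the 7 accessory genes of strand exchange, 6 rose, by amounts from 2.52-fold to 34.5-fold, and Rad52 did not pass the test. Rad51ap1, which stimulates strand invasion, stood at 1.32 CPM in each normal lung and at 47.5, 47.7, 42.9 and 43.9 in the tumors. Its 34.5-fold rise had the smallest adjusted p among the 39 genes (log2 5.11 ± 0.20, adjusted p = 2.46e-05). Rad54b, a translocase that remodels recombining DNA, stood at 1.36 and 1.41 CPM against 33.6, 26.9, 31.5 and 27.9 (21.6-fold). In GENCODE M21, 35.9% of its exon bases are shared with Fsbp on the same strand, which was itself higher (log2 4.55), and reads in those bases cannot be told apart. Rad54l, its relative, rose 9.49-fold from 2.44 and 2.24 CPM to 17.6, 21.5, 22.3 and 27.5 (adjusted p = 0.000173).

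Rad51c, Xrcc3 and Xrcc2 belong to small complexes that help strand exchange. Rad51c went from 1.99 and 2.72 CPM to between 6.49 and 10.6 (3.45-fold, adjusted p = 0.0042), Xrcc3 from 2.20 and 3.22 to between 6.21 and 11.4 (3.11-fold, 0.00897), and Xrcc2 from 6.86 and 8.22 to between 18.2 and 19.7 (2.52-fold, 0.00163). Without normal 1 the calls of Rad51c (adjusted p = 0.0508) and Xrcc3 (0.0861) were lost. Rad52, an annealing protein that overlaps in function with BRCA2, stood at 12.3 and 12.9 CPM in the normal lungs and at 11.4, 11.9, 13.4 and 13.3 in the tumors. Its log2 fold change was −0.01 ± 0.20 (adjusted p = 0.978), and the sign turned with RLE or upper quartile scaling.

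Of the 8 genes of the Fanconi core complex and its E2 enzyme, 5 rose and 3 did not pass the test, with a median log2 fold change of 0.95. Ube2t, which carries the ubiquitin for FANCD2 and FANCI, stood at 0.792 and 0.982 CPM in the normal lungs and at 55.4, 41.6, 34.5 and 33.7 in the tumors. This 46.5-fold rise was the largest of the 39 genes (log2 5.54 ± 0.35, adjusted p = 5.69e-05), and tumor 3, which was lowest for 19 of the 39 genes, was the highest for Ube2t. Fancl, the ligase subunit that works with UBE2T, stood at 9.82 and 10.4 CPM against 20.5, 26.5, 20.0 and 20.5, a 2.16-fold rise (adjusted p = 0.00441) that was lost without normal 1 (0.053). Fancm, the helicase that anchors the core complex on DNA, rose 5.23-fold from 12.4 and 12.3 CPM to 61.7, 51.7, 69.1 and 75.3 (adjusted p = 0.000173).

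Fanca, a subunit of the core complex, rose 2.45-fold from 11.2 and 14.2 CPM to between 25.6 and 36.9 (adjusted p = 0.00402), with 10.5% of its exon bases shared with Zfp276 on the other strand. Fancb rose 1.74-fold from 8.91 and 9.45 CPM to between 14.2 and 17.4 (adjusted p = 0.0141), and its call was lost without normal 1 (0.124) or normal 2 (0.0946). Fancc, Fance and Fancg overlapped between the groups. Fancc stood at 15.2 and 18.7 CPM against 21.2, 14.9, 16.8 and 24.7, Fance at 11.5 and 11.9 against 11.5, 21.7, 13.8 and 19.3, and Fancg at 6.75 and 7.14 against 7.30, 6.42, 10.3 and 10.4. Their adjusted p-values were 0.544, 0.198 and 0.400.

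Both subunits of the ubiquitinated clamp rose, by unlike amounts. Fancd2 stood at 2.45 and 3.80 CPM in the normal lungs and at 27.6, 34.8, 36.8 and 47.7 in the tumors, an 11.8-fold rise (log2 3.56 ± 0.35, adjusted p = 0.000256). Fanci stood at 13.4 and 13.5 CPM against 26.9, 26.2, 31.0 and 33.9, a 2.19-fold rise (log2 1.13 ± 0.20, adjusted p = 0.00254). In GENCODE M21, 16% of the exon bases of Fanci are shared with Polg on the other strand, which was lower (log2 −0.61), and the sources used here do not state whether the counting used strand.

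**Figure D3:**
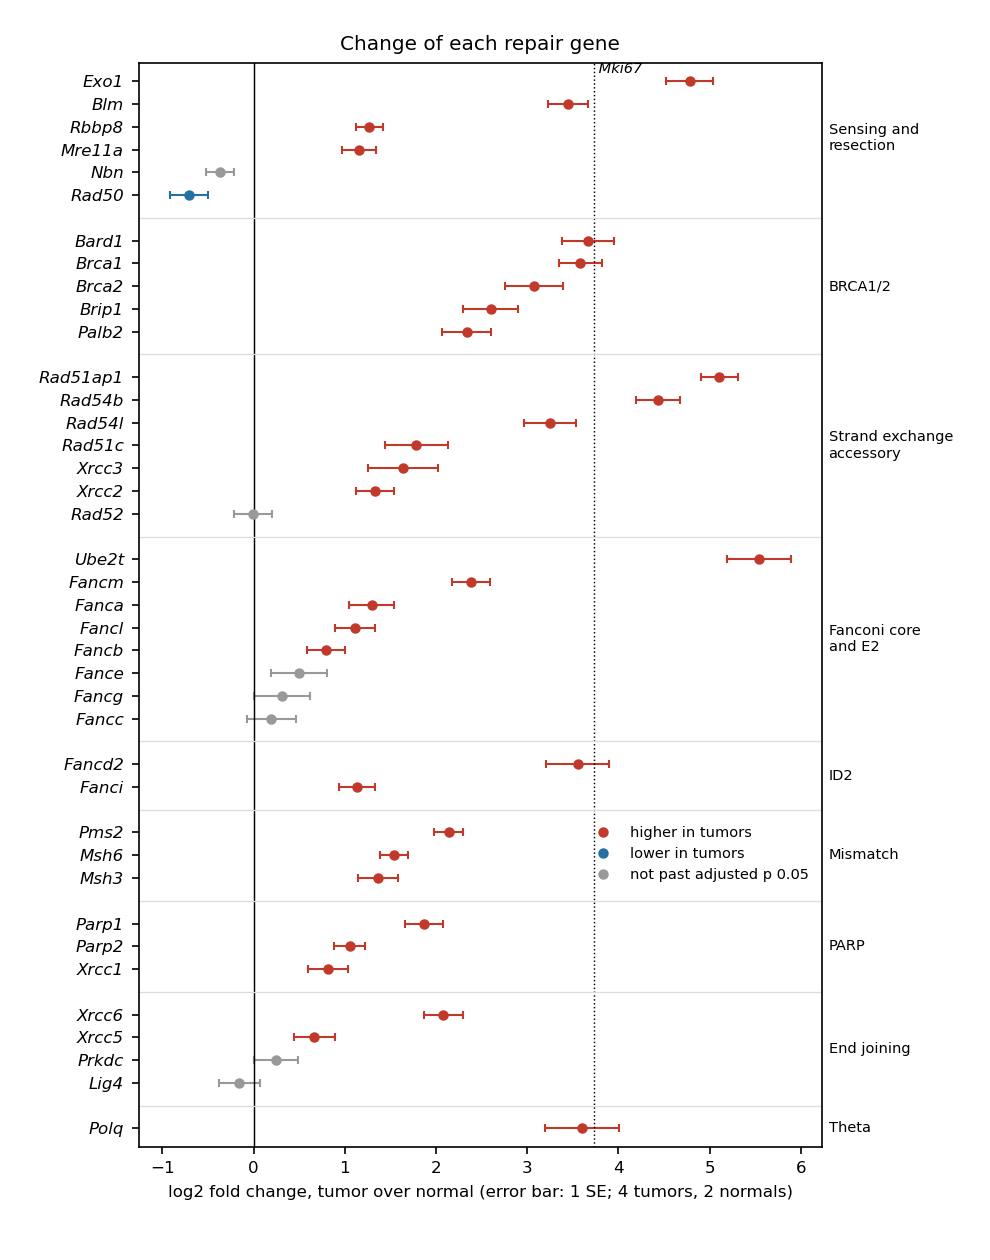
Log2 fold change, tumor over normal, of each of the 39 genes with 1 standard error (edgeR, 4 tumors and 2 normal lungs), in order of pathway, with the dotted line at the value of Mki67. Red marks the 31 genes higher in tumors, blue the 1 lower and grey the 7 without a call.

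All 3 mismatch repair genes rose, and all 4 tumors lay above both normal lungs for each. Msh6, which recognises base mismatches, stood at 38.9 and 38.0 CPM against 108.2, 109.8, 125.9 and 103.9, a 2.91-fold rise (log2 1.54 ± 0.15, adjusted p = 0.000271). Msh3, which recognises larger loops, stood at 16.7 and 16.2 CPM against 41.9, 32.0, 48.7 and 46.2 (2.57-fold, adjusted p = 0.00193). Pms2, an endonuclease that nicks the strand to be corrected, stood at 11.8 and 12.7 CPM against 57.7, 53.9, 52.6 and 51.6, a 4.40-fold rise (adjusted p = 9.18e-05).

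The 3 genes of PARP and single-strand break repair rose. Parp1, which marks breaks with chains of ADP-ribose and is the target of PARP inhibitors, stood at 66.7 and 73.5 CPM in the normal lungs and at 196.0, 282.3, 273.0 and 273.6 in the tumors (3.65-fold, log2 1.87 ± 0.21, adjusted p = 0.00044). Parp2, its relative, went from 21.6 and 24.7 CPM to between 43.6 and 53.3 (2.08-fold, adjusted p = 0.00191). Parp2 lies next to Rpph1, an abundant RNA that was also higher (log2 4.91). Rpph1 stood at 437.4 and 1571 CPM in the normal lungs and at 20270 to 40430 in the tumors. The 2 genes share no exon bases in GENCODE M21, but the annotation used for counting is not stated. Whether reads of Rpph1 were counted for Parp2 was not tested. Xrcc1, the scaffold that PARP activity recruits, went from 21.4 and 21.9 CPM to 28.8, 40.9, 38.0 and 45.2 (1.77-fold, adjusted p = 0.0152), a call lost without normal 1 (0.103) or normal 2 (0.0925).

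The end joining genes had the lowest median of any pathway with more than 1 gene, 0.46 on the log2 scale, and 2 of 4 rose. Xrcc6, which encodes Ku70, stood at 18.4 and 20.4 CPM against 73.1, 103.1, 71.5 and 80.3 (4.23-fold, adjusted p = 0.000315). Its partner Xrcc5, which encodes Ku80, stood at 28.4 and 27.4 CPM against 37.5, 42.8, 38.3 and 58.7 (1.59-fold, adjusted p = 0.0381). The Xrcc5 call was lost without normal 1 (adjusted p = 0.161), normal 2 (0.183) or tumor 4 (0.0507), with total counts as the scale (0.0503) and with no filter (0.0534). Prkdc, the kinase that Ku recruits, stood at 52.3 and 50.4 CPM against 44.8, 52.9, 70.5 and 75.7 (adjusted p = 0.394), with tumors 4, 5 and 6 above and tumor 3 below both normal lungs. Lig4, the ligase that closes the break, stood at 17.4 and 16.5 CPM against 14.6, 16.8, 17.4 and 11.97 (adjusted p = 0.568). Polq, the polymerase of the alternative theta-mediated pathway, stood at 2.31 and 4.29 CPM against 33.3, 33.2, 37.5 and 56.1, a 12.1-fold rise (log2 3.60 ± 0.41, adjusted p = 0.000447).

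Levels of partner genes were set against each other within each library, for 9 pairs chosen after the values were seen and given without a test. The ratio of Ube2t to Fancl counts was 0.0807 and 0.0941 in the normal lungs and 1.57 to 2.70 in the tumors, a 21.4-fold shift. The ratio of Fancd2 to Fanci went from between 0.182 and 0.281 to between 1.03 and 1.41, that of Mre11a to Rad50 from between 0.297 and 0.320 to between 0.992 and 1.34, and that of Xrcc6 to Xrcc5 from between 0.649 and 0.744 to between 1.37 and 2.41. Brca1 to Bard1, at 1.76 and 2.00 against 1.57 to 2.12, and Msh6 to Msh3, at 2.33 and 2.35 against 2.25 to 3.43, overlapped between the groups. A shift in such a ratio shows unequal change and not which partner moved. How often ratios of other gene pairs lie apart between the groups was not computed.

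**Figure D4:**
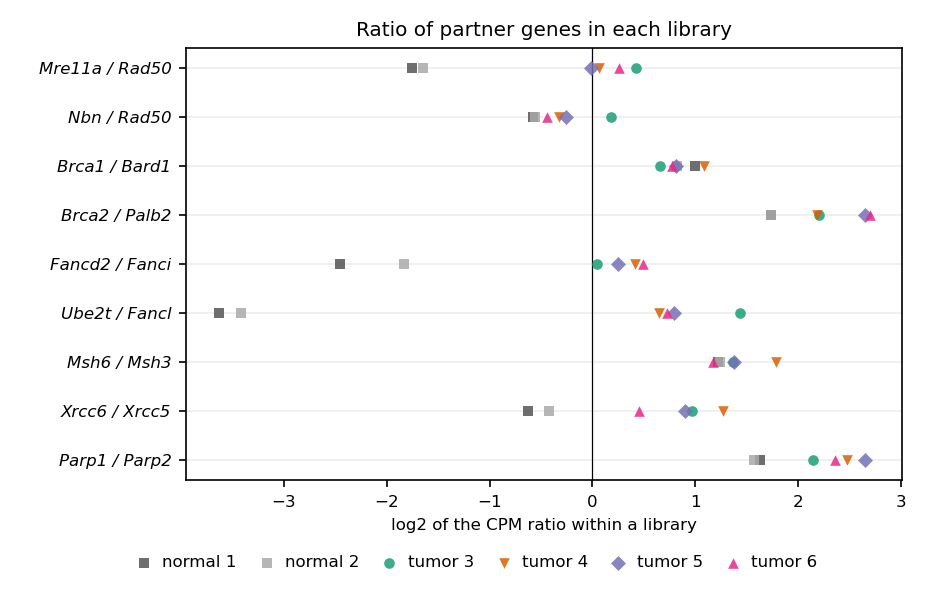
Log2 of the CPM ratio of partner genes within each library, with grey squares for the 2 normal lungs and coloured symbols for the 4 tumors. Brca1 over Bard1 and Msh6 over Msh3 overlap between the groups, and the other 7 pairs do not. No such share was computed for ratios of other genes. Of the 18027 single genes tested, all 4 tumors lay above both normal lungs for 6751 and below both for 7183.

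Levels between genes were compared as CPM per kilobase of exon (GENCODE M21). Parp1 had the highest mean level in tumors, at 48.4 CPM per kilobase, and Msh6 was next at 25.8, with ranges that did not meet (37.0 to 53.3 and 23.9 to 29.0). Xrcc6 (mean 18.3, range 16 to 23.0) and Xrcc5 (17.3, 14.7 to 23.0) followed, and their ranges overlapped. Palb2 at 1.65 and Rad51c at 1.85 had the lowest means in tumors. In the normal lungs Nbn led at 14.3 CPM per kilobase, with Parp1 at 13.2, Xrcc5 at 10.9 and Rad50 at 10.0, and Ube2t at 0.183 was the lowest of the 39. Exon lengths are those of all annotated isoforms joined, so a gene with long rare exons reads low on this scale.

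Across the 39 genes the median ratio of the highest to the lowest tumor was 1.46, and no gene reached a ratio of 2. The same median was 1.39 for 93 other repair genes and 1.38 for 20 proliferation markers. Tumor 6 was the highest for 18 genes, tumor 4 for 10, tumor 5 for 8 and tumor 3 for 3. Levels in single tumors were set against exon length. Across the 39 genes, Spearman's rho between exon length and a tumor's deviation from the tumor mean was −0.10, −0.49, 0.32 and 0.34 in tumors 3 to 6. Over 17228 tested genes it was −0.20, −0.13, 0.30 and 0.14, in the same order of tumors and with the same signs. Single genes departed from these trends: the long gene Rbbp8 was lowest in tumor 6, and the short gene Xrcc5 was highest there. Between exon length and the log2 fold change, tumor over normal, rho was 0.34 across the 39 genes and −0.09 over the 17228. The genes of a tumor share a library, and these correlations are a description. The part of RNA quality or library preparation in them was not tested.

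**Figure D5:**
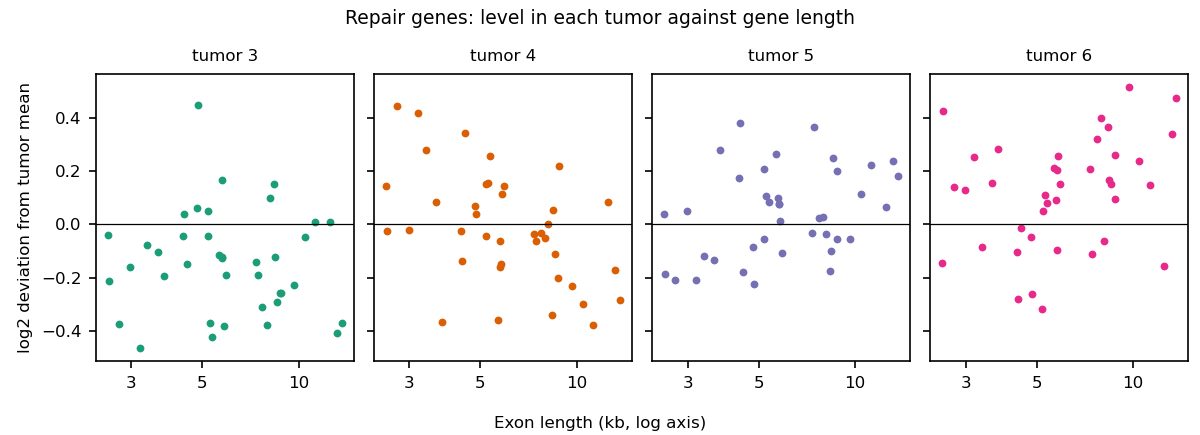
Log2 deviation of each of the 39 genes from its mean over the tumors, against its exon length in kilobases (log axis), with a panel for each of the 4 tumors. Long genes lie lower in tumor 4 (rho −0.49) and higher in tumors 5 (0.32) and 6 (0.34), with no clear slope in tumor 3 (−0.10).

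Markers of other cells and of cell division moved between the same groups. All 20 proliferation markers were higher in tumors, with a median log2 fold change of 4.13 and a summed level of 319.6 to 368.7 CPM in normal lungs against 3714 to 4687 in tumors. The sum of the 39 repair genes went from 578.2 and 610.1 CPM to 1518, 1716, 1758 and 1852, so its ratio to the proliferation sum was 1.81 and 1.65 in normal lungs and 0.375 to 0.465 in tumors. Mki67, a marker of cycling cells, rose 13.3-fold (adjusted p = 0.000138), and 4 of the 39 genes had a larger fold change, Exo1, Rad51ap1, Rad54b and Ube2t, a difference that was not tested. The tissue labels went with their markers: all 12 neuroendocrine markers were higher in tumors (24.0 to 33.7 against 1087 to 1692 CPM summed), and all 8 alveolar type 2, 7 alveolar type 1, 7 club and ciliated and 8 endothelial markers were lower. Of the other lists, 4 of 7 fibroblast, 6 of 7 T and NK cell, 4 of 5 B cell and 5 of 7 macrophage markers were lower, and no marker was at 0 in a whole group. The alveolar type 2 sum fell from between 22440 and 24800 CPM to between 59.4 and 783.5, and the macrophage sum from between 4893 and 5331 to between 237.9 and 1126. The part of cell composition and of cell division in the repair gene changes was not tested. In bulk tissue, fewer cells of a type and less RNA per cell cannot be told apart.

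The libraries held 99122494 and 91049413 counts for the normal lungs and 54735438 to 70817440 for the tumors. Myc was higher in tumors (7.90 and 18.2 CPM against 70.2 to 175.4, adjusted p = 0.0032). Trp53 was lower (21.6 and 22.6 against 9.42 to 15.8 CPM, adjusted p = 0.019) and Rb1 was not called (72.0 to 83.6 against 42.9 to 80.2 CPM, adjusted p = 0.34). These counts cover whole genes and do not check the deleted exons alone. Some non-coding RNAs were higher in tumors: Rn45s, the ribosomal RNA precursor, stood at 1655 and 3144 CPM in normal lungs against 82520, 74470, 10530 and 26200 in the tumors (adjusted p = 0.0103). Rmrp, the RNA of a processing ribonuclease, stood at 303.7 and 690.2 CPM against 18680 to 30870 (adjusted p = 0.000278). With such rows removed before scaling the repair gene counts were as given above, and no other part of RNA quality in them was tested.

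Other genes of the same pathways gave the setting. Of 93 tested, 60 were higher (64.5%), 6 were lower (6.45%) and 27 had no call, with a median log2 fold change of 1.18. By list, 26 of 32 further homologous recombination genes rose and 2 fell, and 13 of 18 genes of the BRCA1-A complex and damage mediators rose and 1 fell. In the Fanconi list 5 of 13 (38.5%) rose, a share near the 31.3% of all genes tested. In the mismatch repair list 7 of 8 (87.5%) rose, and none fell in either list. In base excision repair 8 of 16 (50%) rose and 3 fell. Of 6 further end joining genes 1 rose (16.7%), a share below that of all genes. Fignl1, an ATPase of recombination, rose 19.3-fold, from 3.21 and 3.79 CPM to between 60.7 and 75.4. Hells, a chromatin remodeller, rose 16.95-fold. H2afx, the histone variant phosphorylated at breaks, rose 9.99-fold, and the damage mediators Topbp1 and Rif1 rose 3.60-fold and 2.71-fold.

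Apitd1, a histone-fold partner of FANCM, rose 36.6-fold, from 0.599 and 0.809 CPM to between 19.9 and 34.2. Usp1, which removes ubiquitin from FANCD2, rose 3.06-fold, and the ligase gene Rfwd3 rose 2.70-fold. In mismatch repair Lig1 and Pcna each rose 6.38-fold and Pms1 5.14-fold. In base excision repair Ung, the uracil glycosylase, rose 20.0-fold, the abasic endonuclease Apex1 6.66-fold and the flap nuclease Fen1 5.11-fold. Among end joining genes the nuclease gene Dclre1c rose 2.27-fold.

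Among the 6 other repair genes that fell were Mus81 (1.64-fold), a nuclease that cuts joined DNA, Swsap1 (1.502-fold), Fam35a (1.76-fold), Aplf (1.76-fold) and Parp3. Parp3, a PARP with a role in end joining, stood at 59.8 and 65.7 CPM in the normal lungs and at 3.17, 3.12, 2.94 and 2.99 in the tumors, a 20.5-fold fall (log2 −4.36 ± 0.16, adjusted p = 2.46e-05). It fell while Parp1 and Parp2 rose. Without normal 1, normal 2 or tumor 6, 2 of these 93 genes were called lower in place of 6.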

How the data were processed

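Poly(A) RNA sequencing gave 1 table of gene counts for 6 libraries. Per the submitters' processing notes, reads were trimmed with Trim Galore and Trimmomatic 0.36 and aligned to mm9 with STAR 2.5.4a. The deposited values are raw counts per gene from TPMCalculator, per the labels; no source used here states the annotation or the use of strand. Of the counts from 1 to 10, 61.2% were even, so counts divided by 2 were tried. Library totals ran from 54735438 to 99122494 counts. Genes passing filterByExpr (18027 of 22477; 645 were at 0 throughout) were scaled by TMM and tested with edgeR 4.0.16 (glmQLFit, glmQLFTest, R 4.3.3) on all 6 libraries, with Benjamini-Hochberg adjustment over all genes and a threshold of 0.05. The standard error is the log2 fold change over the root of F. The procedure was tested on simulated data in which far fewer genes changed than were called here. That test does not check the scaling or the false calls where so many genes differ. Alternatives were other scalings, filters, DESeq2 1.42.0, limma voom 3.58.1 and each library left out. All 39 genes are named; from each further list, up to 3 per direction with the smallest p, except that some results are not reported here. The members and lists were chosen with earlier results of these data known. Separate mice are taken from the mouse numbers. Exon lengths and overlaps came from GENCODE M21 on GRCm38, and promoters from RefSeq, with a shorter window as an alternative. Of 98 further repair genes listed, 93 were in the count table under the symbols searched and 5 were not.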

Additional observations from a re-analysis of the deposited data

Results flagged for a closer look

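Each of the 39 genes was examined for 1 tumor standing apart from the other 3 by Dixon's ratio, the gap to the nearest tumor over the whole range, against its 95% critical value for 4 samples. Chance alone flags about 1 in 20 groups, and 2 of 39 were flagged. Fancl stood at 26.5 CPM in tumor 4, against 20.0 to 20.5 in the other tumors (ratio 0.915). Parp1 stood at 196.0 CPM in tumor 3, against 273.0 to 282.3 in the others (ratio 0.893), and this lowest tumor was still above both normal lungs.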

How the results depend on the processing

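Over 15 alternatives and 39 genes, 559 of 585 values kept their direction and their side of the threshold, 14 lost a call, 1 gained one and 11 changed sign. Of 32 called genes, 25 kept call and direction throughout. The sign changes were all in genes without a call. The log2 fold change of Rad52 became 0.049 with RLE size factors, 0.11 with the upper quartile, 0.082 with at least 1 CPM in a group, 0.0496 with DESeq2, 0.0817 without non-coding and histone rows, 0.0075 with counts divided by 2, and lay between −0.058 and 0.051 with 1 library left out, above 0 without normal 2 or tumors 3, 4 or 6. That of Lig4 lay between −0.22 and 0.030 with 1 library left out, above 0 without tumor 6. With 1 library left out, genes higher numbered 3373 to 5912, members higher 25 to 31, members lower 0 to 2, other repair genes lower 2 to 7, and the member median lay between 1.38 and 1.67. Without normal 1 or 2 the lone normal lung is assumed to vary as the tumors do, and fewer libraries are tested. The 7-letter E2F form, added after seeing the sequences, gave 61.3% in place of 22.6%. The all-gene median shifted by 0.12 with the upper quartile and 0.10 with no filter. No paired analysis was possible because the groups share no replicate numbers. With 2 normal lungs, small changes are poorly resolved.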
